A study of Mus musculus with 4 samples.

Results

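The 10 genes described here encode tubulin isotypes: the alpha-tubulins Tuba1a, Tuba1b and Tuba1c and the beta-tubulins Tubb2a, Tubb2b, Tubb3, Tubb4a, Tubb4b, Tubb5 and Tubb6. They were found by matching the Ensembl identifiers of the deposited tables to these symbols, and all 10 were present among 20089 genes, each with at least 20 reads in some library. RNA was sequenced from HT22 cells, an immortalised mouse hippocampal line labelled as hippocampal neurons of the C57BL/6 strain. The control normal library came from cells given a control negative lentivirus and kept in DMEM/F12 with serum, and the knockdown normal library from cells given a lentivirus against Neat1, a long noncoding RNA, in the same medium. The control OGD and knockdown OGD libraries came from cells with the same viruses under OGD, the withdrawal of oxygen and glucose used to mimic ischaemia. All cells thus carried a lentivirus. With 1 library in each group, differences below have no replicate check. Values for the 4 libraries follow a fixed order: control then knockdown cells in normal culture, then control and knockdown cells under OGD.

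Microtubules are hollow polymers of alpha-beta tubulin heterodimers. Vertebrates have several genes for each subunit, whose proteins differ mostly in the acidic C-terminal tail, where motors, associated proteins and modifying enzymes bind. Tubb3 is the classic neuronal beta-tubulin, Tubb2a, Tubb2b and Tuba1a are abundant in developing or mature neurons, and Tubb4a is a brain isotype prominent in myelinating oligodendrocytes. Tubb5, Tubb4b, Tuba1b and Tuba1c are widely expressed, and Tubb6 is mostly a non-neuronal isotype. Cells also lower tubulin mRNA when free heterodimer is in excess: the factor TTC5 recognises the first residues of a nascent tubulin chain, and the mRNA is then degraded.

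The libraries held between 17232866 and 20764430 reads assigned to genes. The target Neat1 stood at 193, 121, 74.4 and 42.1 CPM, with log2 ratios of -0.68 with knockdown in normal culture and -0.81 under OGD. The control normal library stood apart from the other 3, as 1443 genes were 2-fold or more above their level in every other library. The same count was 433 for knockdown normal, 61 for control OGD and 336 for knockdown OGD. The 15 listed neuron markers were likewise highest in control normal. They summed to 2461 CPM (reads scaled to library size with TMM factors) in that library. The sum was 25.6 in the knockdown normal, 129 in the control OGD and 359 in the knockdown OGD library. The comparisons that do not use the control normal library are knockdown under OGD and OGD in knockdown cells.

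How alike the isotypes are in sequence decides how well reads tell them apart. The last 60 coding bases before the stop codon, which encode the C-terminal tail, are shown for 6 beta-tubulins from GENCODE release M21 on GRCm38, written 5′ to 3′. Capitals mark bases that differ from Tubb5, or have no counterpart in it, in a global alignment of the coding sequences.
Tubb5: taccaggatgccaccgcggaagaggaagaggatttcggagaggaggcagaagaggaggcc
Tubb4a: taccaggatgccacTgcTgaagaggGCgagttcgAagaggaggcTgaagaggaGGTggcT
Tubb4b: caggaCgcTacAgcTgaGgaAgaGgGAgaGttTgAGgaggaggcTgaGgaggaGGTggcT
Tubb2a: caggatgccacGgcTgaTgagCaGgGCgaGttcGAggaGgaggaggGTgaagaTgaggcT
Tubb2b: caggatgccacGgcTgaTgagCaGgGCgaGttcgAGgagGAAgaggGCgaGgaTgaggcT
Tubb3: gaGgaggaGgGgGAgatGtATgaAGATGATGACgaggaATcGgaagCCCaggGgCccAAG
Tubb3 had 29 of these 60 bases in capitals and Tubb4a 10. The coding sequence of Tubb3 is longer than that of Tubb5 (1350 against 1332 bases without the stop codon), so its capitals can include inserted bases. Over the whole coding sequence, Tubb3 was 81.4% identical to Tubb5 and 85.9% to Tubb6. Tuba1a and Tuba1b were 98.3% identical, and Tubb2a and Tubb2b 96.5%. Of the 50-base windows of a transcript, 64.6% of those of Tuba1b and 52.0% of those of Tuba1a occurred in another of the 10 transcripts, as did 45.6% for Tubb2a and 33.4% for Tubb2b. For Tubb3, Tubb4b and Tubb6 that share was 0%, and for Tubb4a and Tubb5 it was 0.184% and 0.0385%. The division of reads within the alpha genes and between Tubb2a and Tubb2b is therefore uncertain, while those of Tubb3, Tubb4a and Tubb5 were almost free of shared sequence among the 10.

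The start of the coding sequence is the part that tubulin autoregulation reads once it is translated. The start codon is in lower case below and the 3 codons after it are in capitals.
Tuba1a, Tuba1b and Tuba1c: atgCGTGAGTGC
Tubb3 and Tubb4b: atgAGGGAGATC
Tubb5: atgAGGGAAATC
Tubb4a: atgCGGGAAATC
Tubb2a: atgCGCGAGATC
Tubb2b: atgCGAGAGATC
The alpha genes shared 1 start sequence, and among the beta genes Tubb3 and Tubb4b shared theirs. The beta sequences shown differ in bases but encode the same residues after the start, arginine, glutamate and isoleucine. Tubb6 is not shown.

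Per length, the members differed widely in level. Deposited FPKM (reads scaled to transcript length and library size) in the control normal library ran from 2778 for Tuba1b, 1823 for Tuba1a, 1619 for Tubb5 and 936 for Tuba1c, through 353 for Tubb4b, 203 for Tubb6 and 169 for Tubb2a, to 59.6 for Tubb2b, 34.1 for Tubb3 and 13.2 for Tubb4a. The widely expressed isotypes were thus the bulk of the tubulin mRNA, although Tuba1a, also abundant in neurons, stood above Tubb5 by FPKM. By reads that order was the other way, with 30896 for Tuba1a and 53165 for Tubb5 in the control normal library. Tuba1c held 30752 reads, close to Tuba1a despite its lower FPKM, and the annotation behind the FPKM is not given. The neuronal isotype Tubb3 was the second lowest. Under OGD Tubb5 stood first, at 2221 FPKM in control and 2138 in knockdown cells, above Tuba1b at 1488 and 1234. All 10 members together took 1.09% of reads in the control normal, 1.01% in the knockdown normal, 0.810% in the control OGD and 0.706% in the knockdown OGD library.

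**Figure D1:**
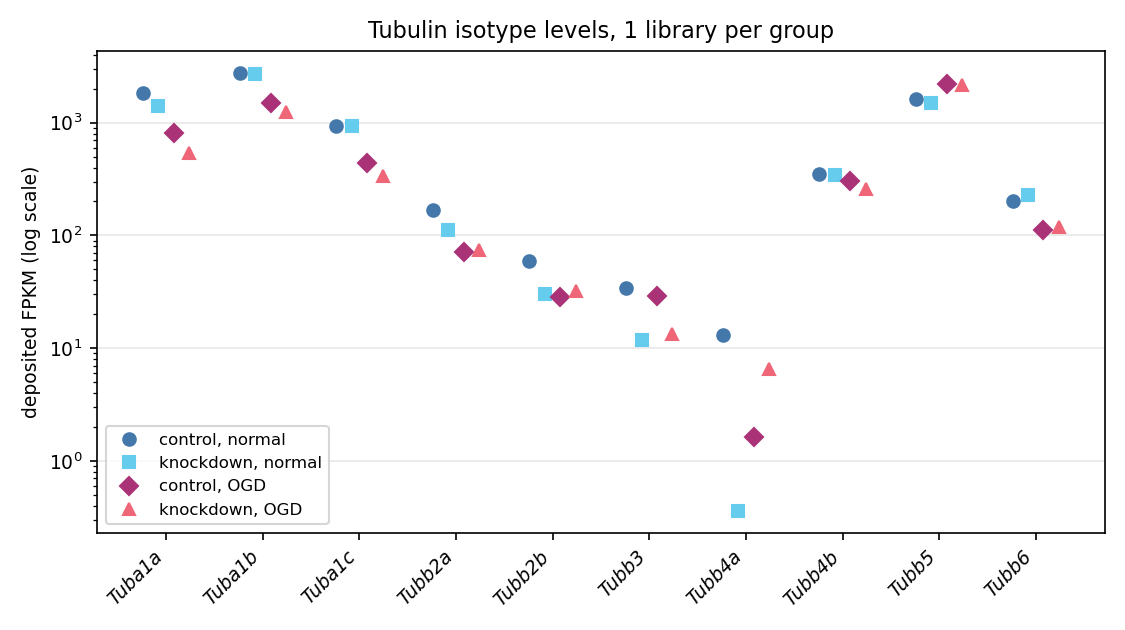
Deposited FPKM (log axis) of the 10 tubulin genes, with 1 point per library. The points of Tuba1a, Tuba1b and Tuba1c are lower under OGD, those of Tubb5 are higher under OGD, Tubb3 separates by virus, and Tubb4a spans from 0.36 to 13.2 FPKM.

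A gene was called higher or lower at a 2-fold difference in TMM-scaled CPM with 0.5 CPM added, which is a rule of size and not a test. With knockdown in normal culture 2 of the 10 members were called, Tubb3 and Tubb4a, both lower, against 22.6% of all genes tested (6.25% higher and 16.3% lower). With knockdown under OGD the called members were again Tubb3, lower, and Tubb4a, higher, against 15.0% of genes (10.7% higher and 4.23% lower). OGD in control cells gave 2 called members, Tubb4a and Tubb2a, both lower, against 31.5% of genes (9.36% higher and 22.2% lower). OGD in knockdown cells gave 4, with Tuba1a, Tuba1b and Tuba1c lower and Tubb4a higher, against 35.9% of genes (19.1% higher and 16.9% lower). These shares of members (20% in the first 3 comparisons and 40% in the last) lie near the background, so the counts by themselves show nothing particular to tubulins. The split of calls over all genes depended on the scaling: 1437 were higher and 566 lower with knockdown under OGD, against 1788 and 384 with total counts, and 1320 higher and 3125 lower with OGD in control cells, against 866 and 3808. Total counts shifted the median of all genes by 0.19 and -0.23 in these comparisons. Medians of the members' log2 ratios were -0.19, -0.35, -0.74 and -0.51 in the same order, against -0.03, -0.00071, -0.11 and -0.0020 over all genes. Knockdown in normal culture and OGD in control cells share the control normal library as reference, so their values are not independent.

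**Figure D2:**
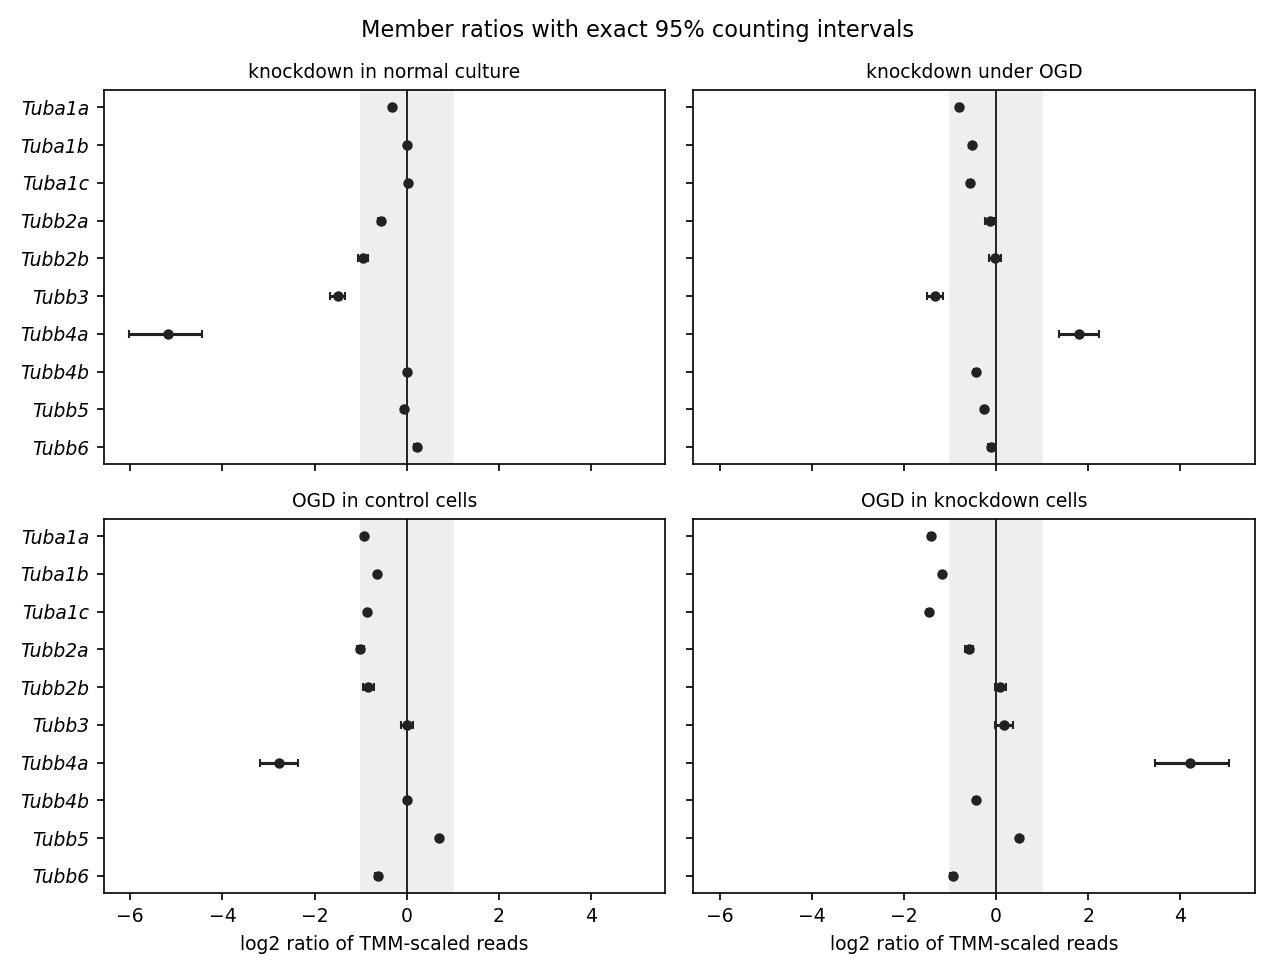
Log2 ratios of TMM-scaled reads (horizontal axis, no CPM added) for the 10 genes in the 4 comparisons, with exact 95% conditional binomial intervals as bars and the range within 2-fold in grey. Tubb3 lies left of the grey band in both knockdown panels and near 0 in both OGD panels, and Tubb4a lies left in the panels of knockdown in normal culture and OGD in control cells and right in the other panels.

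Tubb3 (chromosome 8, 123411424 to 123422015 on GRCm38, plus strand, 4 exons) was low in the libraries of the Neat1 virus in either culture. It held 1052 reads in control normal, 407 in knockdown normal, 830 in control OGD and 419 in knockdown OGD, which is 53.7, 18.9, 54.0 and 21.4 CPM. Both control libraries were high and both knockdown libraries low. Tubb3 was 2.83-fold lower with knockdown in normal culture (exact 95% interval 2.52 to 3.18) and 2.52-fold lower under OGD (2.24 to 2.84). Between normal culture and OGD it had log2 ratios of 0.0080 in control cells, of the other sign with total counts or FPKM, and 0.17 in knockdown cells. In folds these were 1.01 (0.917 to 1.10) and 1.13 (0.983 to 1.30), both intervals including 1. These intervals, like all others here, cover counting error only, in reads without molecular identifiers. Of the genes tested, 12.7% had a lower ratio than Tubb3 with knockdown in normal culture, and 2.11% under OGD. Tubb3 was the only one of the 10 members called lower with knockdown in both cultures, and 88 of 12856 genes (0.685%) were so called. The difference under OGD does not involve the control normal library.

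With knockdown in normal culture Tubb3 (log2 ratio -1.48) lay on the same side as the neuron markers, of which 15 of 15 were called lower with a median of -6.54. With knockdown under OGD it lay on the other side, at -1.31, while 13 of 15 markers were called higher with a median of 2.20. With OGD 14 of 15 markers were lower in control cells and 15 of 15 higher in knockdown cells, where Tubb3 was within 2-fold. In bulk RNA, fewer cells of a type and less RNA per cell cannot be told apart.

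Tubb4a (chromosome 17, 57080066 to 57087782, minus strand) was the 1 member with the brain-type pattern, defined as at least 2-fold lower with knockdown in normal culture and at least 2-fold higher with it under OGD. This pattern was seen in 626 of 12856 genes (4.87%). Tubb4a held 495 reads in control normal, 15 in knockdown normal, 57 in control OGD and 251 in knockdown OGD, or 25.2, 0.698, 3.71 and 12.8 CPM. It was 36.2-fold lower with knockdown in normal culture (21.7 to 65.1) and 3.46-fold higher with knockdown under OGD (2.59 to 4.70). OGD went with a 6.81-fold lower level in control cells (5.17 to 9.13) and an 18.4-fold higher one in knockdown cells (10.9 to 33.3). With 0.5 CPM added the log2 ratios were -4.43, 1.66, -2.61 and 3.47, since the added CPM understates ratios of low levels. Control normal was highest, then knockdown OGD, control OGD and knockdown normal, the same order as for the summed neuron and oligodendrocyte markers.

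The neuron, oligodendrocyte, endothelial and haemoglobin sums had the highest value in the control normal and the next in the knockdown OGD library, as Tubb4a had. The 10 oligodendrocyte markers summed to 295 CPM in control normal, 27.5 in knockdown normal, 34.8 in control OGD and 105 in knockdown OGD. Olig2 was at 0 reads in knockdown normal and control OGD. The myelin gene Mbp held 2368, 83, 97 and 924 reads in the 4 libraries. The neuron marker Rbfox3 (NeuN) held 1238, 4, 10 and 89 reads and the vesicular glutamate transporter gene Slc17a7 held 4528, 6, 44 and 319. The 4 haemoglobin genes summed to 856, 6, 7 and 108 reads. Astrocyte and microglia sums did not have the order of Tubb4a. They were 175, 69.8, 240 and 234 CPM for astrocytes and 74.9, 64.0, 18.3 and 22.0 for microglia. Of the astrocyte reads (3440, 1500, 3685 and 4573), Gja1 held 1704, 1219, 3579 and 3700. The astrocyte marker Slc1a2 had the order of Tubb4a, at 1412, 30, 83 and 582 reads. Gfap (102, 10, 0 and 39 reads) was also highest in control normal and next in knockdown OGD. Slc1a3 (204, 240, 17 and 162 reads) was highest in knockdown normal. Of the microglia reads (1469, 1375, 281 and 431), Tmem119 held 1209, 1202, 129 and 209. Endothelial markers summed to 29.1, 8.05, 6.37 and 9.96 CPM, with control OGD the lowest. The part of these cell types in the level of Tubb4a was not tested.

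**Figure D3:**
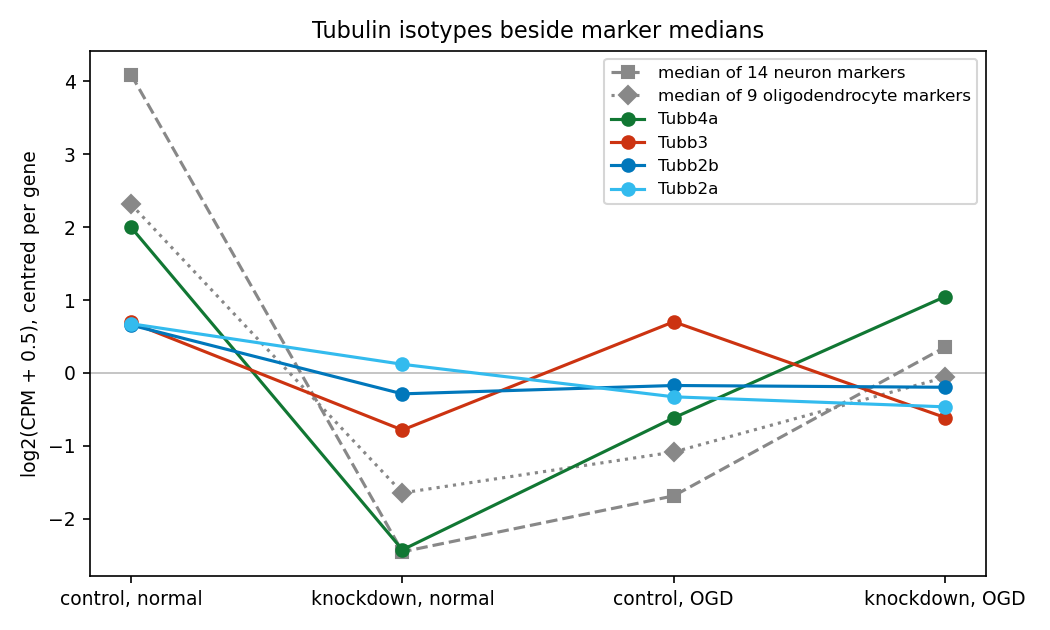
Log2(CPM + 0.5), centred on each gene's mean over the 4 libraries, for Tubb4a, Tubb3, Tubb2b and Tubb2a, with the medians of 14 neuron and 9 oligodendrocyte markers in grey (markers with at least 100 reads in some library). Lines join the values of 1 gene or list. Tubb4a follows the shape of the marker medians, whereas Tubb3 is high in both control libraries and low in both knockdown libraries.

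The other neuronal isotypes were highest in the control normal library but did not have the brain-type pattern. Tubb2b, a tubulin of migrating neurons, stood at 96.8 CPM in control normal, against 50.1 in knockdown normal, 54.3 in control OGD and 53.4 in knockdown OGD. The remaining 3 libraries thus lay close together. It was 1.93-fold lower with knockdown in normal culture (1.79 to 2.08), short of the rule. Under OGD its log2 ratio with knockdown was -0.02, of the other sign with total counts, FPKM or TMM without brain-type and repeat genes. Tubb2a stood at 220 CPM in control normal, 150 in knockdown normal, 110 in control OGD and 99.6 in knockdown OGD. It was 2.01-fold lower with OGD in control cells (1.90 to 2.13), at the edge of the rule. That call was lost with median-of-ratios size factors, with TMM factors computed without brain-type and ribosomal RNA repeat genes, and with 2 CPM added (where it lay between the rule and -0.95). With knockdown in normal culture it was 1.47-fold lower (1.41 to 1.54). The genes lie near each other on chromosome 13, minus strand (Tubb2a at 34074274 to 34078007, Tubb2b at 34126748 to 34130466), and share much sequence, as given above.

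The alpha-tubulin mRNAs were lower under OGD with either virus. Tuba1b, the most abundant, held 64896, 70960, 32491 and 28612 reads, or 3310, 3303, 2112 and 1461 CPM. The normal-culture libraries agree closely and both OGD libraries are lower. Tuba1a stood at 1576, 1270, 833 and 475 CPM and Tuba1c at 1568, 1591, 862 and 578 CPM. With OGD in knockdown cells, Tuba1a was 2.67-fold (2.61 to 2.74), Tuba1b 2.26-fold (2.23 to 2.29) and Tuba1c 2.75-fold lower (2.69 to 2.81). With OGD in control cells the same genes were 1.89-fold, 1.57-fold and 1.82-fold lower, short of the rule. With total counts or deposited FPKM in place of TMM, where the median of all genes also lay lower, Tuba1a and Tuba1c passed it (log2 ratios down to -1.16 and -1.10). With knockdown under OGD, the 3 alpha genes had log2 ratios of -0.81, -0.53 and -0.58, and in normal culture of -0.31, -0.0027 and 0.021. Those of Tuba1b and Tuba1c in normal culture took the other sign under some scalings. All 3 lie on chromosome 15 between 98931425 and 99038110.

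Tubb5, the main beta-tubulin, stood on the opposite side. It held 53165 reads in control normal, 55417 in knockdown normal, 67758 in control OGD and 71642 in knockdown OGD, which is 2711, 2580, 4404 and 3659 CPM. Both OGD libraries were above both normal-culture libraries. OGD went with a 1.62-fold higher level in control cells (1.61 to 1.64) and a 1.42-fold higher level in knockdown cells (1.40 to 1.43). Neither passed the rule, and both stayed above 0 under every scaling tried, with log2 ratios from 0.46 to 0.75 and from 0.49 to 0.55. Of all genes tested, 84.0% had a lower ratio than Tubb5 in control cells and 68.6% in knockdown cells. Tubb5 lies on chromosome 17, 35833921 to 35838306, minus strand.

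The balance of alpha to beta mRNA therefore differed between the cultures, a quantity chosen after the values were seen and one that scaling between libraries cannot alter. The summed FPKM of the 3 alpha genes was 5538 in control normal and 5031 in knockdown normal, and 2738 in control OGD and 2104 in knockdown OGD. The 7 beta genes summed to 2451, 2223, 2764 and 2643. Alpha to beta stood at 2.26 in both normal-culture libraries, at 0.991 in control OGD and at 0.796 in knockdown OGD. By reads the ratios were 1.67 (exact interval 1.66 to 1.69), 1.71 (1.70 to 1.73), 0.722 (0.714 to 0.730) and 0.576 (0.570 to 0.583). The ratio of FPKM was 2.28-fold lower with OGD in control and 2.84-fold lower in knockdown cells. Leaving Tubb5 out of the beta sum, it was 1.32-fold and 1.65-fold lower. The read sum of the alpha genes does not depend on how shared reads were divided among the 3, provided that such reads were counted. The counter is not given, so whether reads matching several genes were dropped is not known. The FPKM sum of the alpha genes does depend on the division, since FPKM per read differs between genes.

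Within the beta genes, Tubb5 took 70.3% of reads in control normal (exact binomial interval 70.0 to 70.6), 71.7% in knockdown normal (71.4 to 72.0), 83.6% in control OGD (83.3 to 83.8) and 83.9% in knockdown OGD (83.6 to 84.1). Per length its shares were 66.1%, 67.2%, 80.3% and 80.9%. Tubb3 took 1.39%, 0.526%, 1.02% and 0.491% of beta reads, again high with the control virus and low with the Neat1 virus. Within the alpha genes, Tuba1b took 51.3%, 53.6%, 55.5% and 58.1% of reads.

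**Figure D4:**
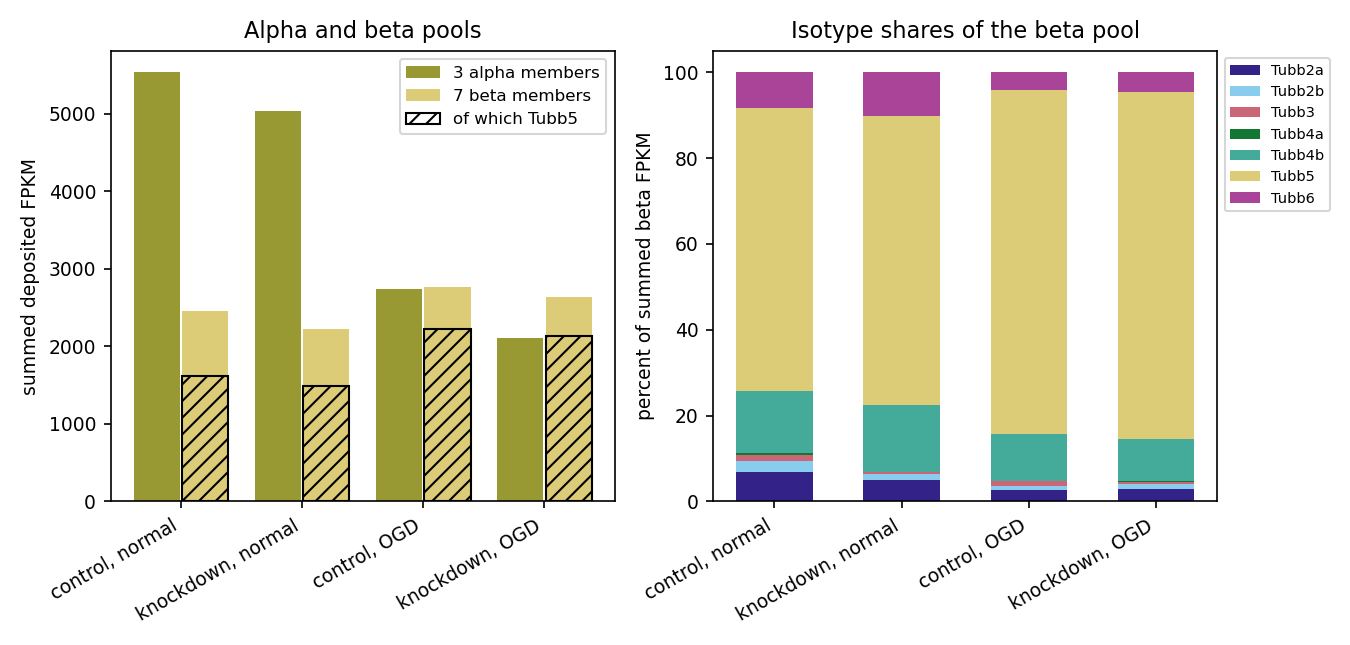
Left, summed deposited FPKM of the 3 alpha and 7 beta genes per library (bars from 0), with Tubb5 hatched within the beta bar. Right, percent of the summed beta FPKM taken by each beta gene. Alpha bars exceed beta bars in normal culture (5538 against 2451 in control cells) and not under OGD (2738 against 2764), and Tubb5 fills 80.3% and 80.9% of the beta pool under OGD.

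Tubb4b and Tubb6 completed the set. Tubb4b (chromosome 2, 25222160 to 25224702, minus strand), an isotype found in cilia and most cells, stood at 453, 456, 453 and 337 CPM, so that the knockdown OGD library alone was lower. It was 1.34-fold lower with knockdown under OGD (1.30 to 1.39). Tubb6 (chromosome 18, 67390717 to 67402749, plus strand) stood at 297, 344, 193 and 179 CPM, lower in both OGD libraries. OGD went with a 1.54-fold lower level of it in control (1.47 to 1.61) and a 1.92-fold lower level in knockdown cells (1.85 to 2.00), short of the rule. Of 10 other tubulin genes listed, 7 were in the tables. Knockdown in normal culture gave 1 lower of 5 tested (Tubg2), against 16.3% of all genes, and 0 higher. Of 4 tested, knockdown under OGD gave 1 lower (Tubd1, at 63 and 35 reads, named after its values were seen), against 4.23% of all genes, and 0 higher. OGD gave 1 higher (Tube1) and 1 lower of 5 with either virus, the lower one being Tubg2 in control cells (22.2% of all genes lower) and Tubd1 in knockdown cells (16.9%). Such counts of 1 gene set nothing apart from the background. Tuba4a stood at 140, 187, 96.5 and 102 CPM, while Tuba3a and Tuba8 reached at most 1 and 3 reads.

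In the authors' deposited tables, the adjusted p-value for Tubb4a with knockdown in normal culture was 0.00193, from a single pair of libraries, so it compares those libraries and not the conditions. The authors' deposited table gave 0.431 for Tubb3 and 0.703 for Tubb2b in that comparison, and 37 of the 40 member values were 1.

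The other genes of the tubulin pathway were read by the same rule, under which 22.6% of all genes were called with knockdown in normal culture, 15.0% with knockdown under OGD, 31.5% with OGD in control cells and 35.9% with OGD in knockdown cells. Of 22 folding and autoregulation genes (prefoldin, the CCT chaperonin, tubulin cofactors and Ttc5), knockdown in normal culture left 1 called higher, the cofactor gene Tbce (1.61), and 0 lower. With knockdown under OGD 1 was lower, Tbca, which encodes a chaperone of beta-tubulin (-1.04), with Tbcel at 0.76 and Cct3 at -0.54. OGD in control cells gave 1 higher, Tbcel (1.20), and OGD in knockdown cells gave Tbcel higher (1.16) and the alpha-tubulin cofactor gene Tbcb lower (-1.15). These 1 or 2 calls among 22 are a smaller share than that of all genes in each comparison. The median of the list was 0.14, -0.17, 0.12 and -0.16 in these comparisons.

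Among 28 microtubule-associated and severing proteins, knockdown in normal culture left 9 of 27 tested lower (16.3% of all genes) and 0 higher (6.25%), including the stathmin Stmn3 (-7.25), the tau gene Mapt (-5.17) and Map6 (-1.49). With knockdown under OGD 7 of 26 were higher (10.7% of all genes) and 2 lower (4.23%), with Stmn3 at 2.58, the oligodendrocyte protein gene Tppp at 2.37 and Mapt at 2.30. Mapt had the library order of Tubb4a, with 539, 6, 18 and 151 reads. OGD in control cells gave 6 lower of 27, a share near the 22.2% of all genes, and 0 higher (9.36% of all genes). OGD in knockdown cells gave 9 higher and 1 lower of 26, against 19.1% and 16.9% of all genes. The list had medians of -0.70 and 0.17 with knockdown in normal culture and under OGD, and of -0.21 and 0.55 with OGD in control and knockdown cells.

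Of the tubulin modifying enzymes 5 of 16 stood lower in knockdown than in control cells of normal culture, against 16.3% of all genes, and 0 higher, against 6.25%. Among them were the deglutamylase gene Agtpbp1 (-1.70), the detyrosinating enzyme gene Vash1 (-1.70) and the acetyltransferase gene Atat1 (-1.11). Of 14 tested under OGD with knockdown, 0 were called, against 15.0% of all genes, with Ttll7, a polyglutamylase gene, at 0.86. OGD in control cells gave 4 lower and 1 higher of 16, near the 22.2% and 9.36% of all genes, led by Vash1 (3 against 206 reads). OGD in knockdown cells gave 2 lower and 2 higher of 16, against 16.9% and 19.1% of all genes, with Agtpbp1 at 2.46 and the deacetylase gene Sirt2 at 1.44.

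Of 10 genes of the gamma-tubulin ring complex, which nucleates microtubules, knockdown in normal culture gave 1 lower (Tubg2, -2.32) and 0 higher, against 22.6% of all genes called, and knockdown under OGD 0 of 9, against 15.0%. OGD in control cells gave Tubgcp2 higher (1.25) and Tubg2 lower (-3.14), against 31.5% of all genes called. OGD in knockdown cells gave Tubgcp2 higher (1.97), against 35.9%.

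Other genes shared the level pattern of Tubb3. By the Euclidean distance of log2(CPM + 0.5), centred per gene over the 4 libraries, genes among the closest of 10749 with at least 100 reads in some library were Cry1 (0.0898), Zfp668 (0.194), Mob3c (0.240) and Ahdc1 (0.280). Cry1, a circadian repressor, held 390, 160, 312 and 157 reads. Among the tubulins Tubb2b was nearest (1.09) and Tubb4a farthest (2.98). With 4 libraries the measure is a description of these samples.

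Sequence upstream of the RefSeq start was shown for Tubb5, the abundant isotype that was higher under OGD, for Tuba1b, which was lower, and for Tubb3. By GENCODE coordinates, the larger part of the sequence shown for Tuba1b and Tubb3 lies inside the gene, as do the last few bases of that shown for Tubb5. GENCODE places the start of Tuba1b at 98934565, that of Tubb3 at 123411424 and that of Tubb5 at 35838306. The sequences of Tuba1a and Tubb4a counted below overlap their genes likewise. The 250 bases before the RefSeq start on GRCm38.p6 are given 5′ to 3′ on the strand of the gene, with capitals for motifs on either strand: the CCAAT box, the GC box GGGCGG, the TATA motif TATAAA, and both forms of the core that hypoxia-inducible factors bind, one being ACGTG while the other is GCGTG.
Tubb5 (chr17:35838302-35838551, minus strand): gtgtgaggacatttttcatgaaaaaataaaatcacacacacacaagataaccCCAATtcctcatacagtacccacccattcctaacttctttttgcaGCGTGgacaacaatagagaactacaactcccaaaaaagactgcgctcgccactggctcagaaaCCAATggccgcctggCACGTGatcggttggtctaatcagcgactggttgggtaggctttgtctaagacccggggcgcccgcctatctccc
Tuba1b (chr15:98934391-98934640, minus strand): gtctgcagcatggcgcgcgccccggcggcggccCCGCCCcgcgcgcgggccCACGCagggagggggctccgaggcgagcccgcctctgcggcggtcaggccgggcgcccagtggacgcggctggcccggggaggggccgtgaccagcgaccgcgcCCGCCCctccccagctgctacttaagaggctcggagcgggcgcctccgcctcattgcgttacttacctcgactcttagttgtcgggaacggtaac
Tubb3 (chr8:123411303-123411552, plus strand): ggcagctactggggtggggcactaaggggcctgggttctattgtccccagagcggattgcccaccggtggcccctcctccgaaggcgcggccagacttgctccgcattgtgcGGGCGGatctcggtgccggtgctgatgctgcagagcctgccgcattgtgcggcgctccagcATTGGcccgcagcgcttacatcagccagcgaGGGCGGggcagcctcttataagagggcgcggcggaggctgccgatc
The table held windows for 8 members, not for Tubb2b and Tubb6. Either form of that core occurred in 4 of the 8, Tuba1b, Tubb4a, Tubb4b and Tubb5, against 38.6% of all 32851 windows. Genes lower and higher under OGD were thus both among those with the core. In Tubb5 the ACGTG matches of both strands overlap in a palindrome. CCAAT occurred in 5 of 8 windows (33.8% of all), GGGCGG in 5 of 8 (32.7%), and TATAAA in the window of Tubb2a (12.4%). A match of letters is not a binding site.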

How the data were processed

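RNA was measured in 4 libraries, 1 per group. TopHat2 and the mm10 build are named per the submitters' processing notes. The counter, the annotation and any use of strand: not given in the sources used here. The authors deposited 4 pairwise tables with size-factor scaled counts (a signal, per the file headers), 2 numbered columns whose deposited values read as FPKM, and the adjusted p-value of the authors' fit. From the deposited signal, whole reads came back for 100% of values (tolerance 1e-06 of a read), the same in both tables of a library. No count test was run: the 4 groups of 1 library leave no residual degrees of freedom, and a fit without the interaction, which would leave some, was not run.

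TMM factors over the 4 libraries came from edgeR 4.0.16 and median-of-ratios factors from DESeq2 1.42.0 (R 4.3.3). Python 3.11.15 was used for the rest, with pandas 2.3.3, numpy 2.4.6, scipy 1.17.1, Biopython 1.88 and matplotlib 3.10.9. Log2 ratios used CPM with 0.5 added, where the higher library held 20 reads or more. Folds and intervals (95%, exact conditional binomial for ratios, exact binomial for shares) use no added CPM. The ratio code was tested on simulated data. Names and coordinates are from GENCODE M21, which named 19912 of 20089 genes, and upstream windows from RefSeq. Members, gene lists and rules were chosen with earlier results of these data known. The genes named are the 10 members, up to 3 genes per list and comparison with the largest ratio and at least 100 reads, and the 5 closest to Tubb3, of which 1 is not reported here. The number of columns without a sample was 0. Alternatives were 3 other scalings, FPKM, additions of 0.1 or 2 CPM, and either no floor or one of 100 reads.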

Additional observations from a re-analysis of the deposited data

Results flagged for a closer look

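The ratios of Tubb4a between knockdown and control libraries pointed in opposite directions in the 2 cultures. The log2 ratios were -4.43 in normal culture and 1.66 under OGD. Its ratios between OGD and normal culture did likewise, at -2.61 in control cells and 3.47 in knockdown cells. These are the same 4 libraries read both ways. The difference was not tested, since each group holds 1 library.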

How the results depend on the processing

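Over 8 settings, 32 of 40 member ratios kept their direction, and 36 of 40 kept their side of the 2-fold rule. The settings with no floor or a floor of 100 reads left every member ratio as it was, so agreement under them was fixed in advance. Those that changed direction were Tuba1b, Tuba1c and Tubb4b with knockdown in normal culture, Tubb2a, Tubb2b and Tubb6 with knockdown under OGD, and Tubb3 and Tubb4b with OGD in control cells, with values from -0.24 to 0.18. Tubb3 stayed called under every setting with knockdown in normal culture (-1.51 to -1.41) and under OGD (-1.33 to -1.11). The count of called members moved for OGD in control cells, from 2 to 5 with total counts and with deposited FPKM (Tuba1a, Tuba1c and Tubb2b added), and to 1 with median-of-ratios factors, with TMM factors without brain-type and ribosomal RNA repeat genes, and with 2 CPM added (Tubb2a lost). In the other 3 comparisons the called members were the same under all 8. At a fold of 1.5 the member with the brain-type pattern was again Tubb4a, and at 4 there were 0. With FPKM in place of reads, the share of Tubb5 was 66.1%, 67.2%, 80.3% and 80.9%. With reads in place of FPKM, alpha to beta was 1.67, 1.71, 0.722 and 0.576. Over all genes, the called share with 2 CPM added was 12.8%, 5.96%, 21.8% and 23.8% for knockdown in normal culture and under OGD and for OGD in control and knockdown cells, against 22.6%, 15.0%, 31.5% and 35.9%, while raising the floor to 100 reads gave 14.5%, 7.01%, 26.6% and 29.4%. A 0 in a library allows up to 3 reads, or 0.140 to 0.195 CPM. No paired analysis was possible because the groups compared share fewer than 2 replicate numbers. A fit with virus and culture as terms and no interaction was not run.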

Other observations

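Tubulins outside the alpha and beta families were measured as well. Given as control then knockdown in normal culture and then under OGD, Tubg1, the gamma-tubulin that nucleates microtubules, stood at 159, 135, 159 and 131 CPM. The brain-enriched copy Tubg2 held 167, 28, 8 and 14 reads. The centriolar tubulins Tube1 and Tubd1 differed in direction under OGD: Tube1 held 95 and 105 reads in normal culture and 245 and 359 under OGD, and Tubd1 held 150 and 155 in normal culture and 63 and 35 under OGD, control before knockdown.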
